A study of Saccharomyces cerevisiae with 13 samples.

Results

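The nuclear tRNA genes of budding yeast (Saccharomyces cerevisiae) were examined for overlap with DNA break peaks. All genes of biotype tRNA on the 16 nuclear chromosomes of the RefSeq R64 gene table were taken, which gave 143 genes on the plus strand and 132 on the minus strand, in all 4.28% of the 6431 nuclear genes. They were 71 to 133 bp long with a median of 73 bp, and none was dropped. Of these, 80 were clustered, meaning that another tRNA gene lay within 5 kb, and 195 were isolated. Together they formed 232 loci, of which 32 held 2 genes, 4 held 3 genes and 1 held 4 genes.

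tRNA genes are short genes transcribed by RNA polymerase III. Their promoter lies inside the gene and is bound by TFIIIC, which brings TFIIIB to the DNA upstream, so the gene carries a stable protein complex through much of the cell cycle. In budding yeast they are known as places where replication forks pause, and the Ty retrotransposons Ty1 and Ty3 insert next to them.

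The breaks were mapped by Break-Seq, in which DNA ends are filled in with biotinylated nucleotides inside agarose plugs, captured and sequenced. Cells of strain WFA72 (MEC1), called WT here, and WFA73 (mec1-1), called mec1 here, were grown in YPD. Mec1 is the yeast counterpart of the checkpoint kinase ATR. The mating pheromone alpha factor (3 µM) first arrested every culture in G1, and sodium azide was added at sampling. Release into 200 mM hydroxyurea (HU), which blocks the making of deoxynucleotides, for 1 h gave the HU samples, and a further 1 h in fresh medium without HU gave the recovery (R) samples.

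There were 13 peak lists in 9 groups. HU lists called from the HU library alone numbered 3 for mec1 (Exp A, Exp B, Control) and 2 for WT (Exp C, Control). Recovery gave a mec1 list each from Exp A and Exp B and a WT list from Exp C, all called against HU of the same experiment, so a site broken to the same extent at both times is left out of them. In the Control experiment each strain had 2 more lists. The titles of these 4 samples name mock labelling or G1 cells, while their descriptions name HU peaks called against the library without biotin (over mock) or against G1 (over G1). They were read by the description, so they draw on the same HU library as that strain's Control list called alone. A further list is of G1 DNA (mec1, Exp A) digested outside the cell by BamHI, a restriction enzyme, so its positions are set by that enzyme's sites. Sequencing depth is unknown for all lists, and nothing says whether lists of a group come from separate cultures, so p-values here measure only the spread between lists. Each strain was labelled as 1 strain name, with no further clone.

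The first question was how many tRNA genes lay under a break peak. Background was counted in the same way in each list, on the whole genome tiled with 165185 windows of 73 bp, and on 73-bp windows at the starts of the 6002 protein-coding genes. Intervals in brackets are 95% exact binomial (Clopper-Pearson) intervals. They cover counting error only, and genes of 1 cluster can share a peak.

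In mec1 after HU, peaks overlapped 17 tRNA genes in Exp A, which is 6.18% of all tRNA genes (3.64 to 9.71), against 4.17% of genome windows. In Exp B they overlapped 22 genes, or 8.00% (5.08 to 11.9), against 4.54% of windows. In the Control list they overlapped 49 genes, or 17.8% (13.5 to 22.9), against 8.18% of windows. All 3 mec1 lists thus placed tRNA genes above the windows, and in Exp A the interval of the tRNA share included the window value.

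In WT after HU, the Exp C list overlapped 37 tRNA genes, or 13.5% (9.65 to 18.1), against 4.04% of windows. The WT Control list was short, with 43 peaks, and overlapped 5 tRNA genes, or 1.82% (0.593 to 4.19), against 0.932% of windows. The ratio of tRNA share to window share was 1.48, 1.76 and 2.18 in the mec1 lists and 3.33 and 1.95 in the WT lists.

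The tRNA share exceeded the gene start share in 5 of 5 HU lists, by 5.37 percentage points on average (SD 4.21, n = 5 lists). The exact sign-flip permutation test over lists gave p = 0.063 (two-sided), the smallest value that 5 lists allow, so the design could not pass a threshold of 0.05. Gene starts were overlapped in 3.47%, 4.22% and 7.40% of cases in mec1 and 4.28% and 1.08% in WT, close to the window values. With every peak cut to the 200 bp around its midpoint the difference turned to -0.0945 percentage points, with 0 to 2 tRNA genes left per list. With peaks set to 2 kb it was 0.879 percentage points, positive in sign but far smaller.

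The strains were compared by the share of tRNA genes overlapped, which was 10.7% ± 6.26 (SD, n = 3) in mec1 HU and 7.64% ± 8.23 (SD, n = 2) in WT HU. The difference of 3.03 percentage points was smaller than the spread between lists, with p = 0.8 by the exact permutation test (two-sided). The smallest p that 3 lists against 2 allow is 0.2. The sign rested on the Control experiment. It turned to -0.546 when the mec1 list of that experiment was left out and to -2.79 when the WT one was. Set against the windows of each list, the direction was the other way. The log2 of tRNA share over window share averaged 0.836 in mec1 HU and 1.35 in WT HU. The difference of -0.515 had p = 0.4 by the exact permutation test and stayed negative in every alternative. This measure was not among the planned ones.

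The strains were also compared by the share of peaks that touch a tRNA gene, which within each strain was higher in the longer lists. It was 10.9%, 13.2% and 17.4% in the mec1 lists and 32.0% (Exp C) and 11.6% (Control) in WT. The mec1 mean of 13.8% ± 3.28 (SD, n = 3) and the WT mean of 21.8% ± 14.4 (SD, n = 2) differed by -8.01 percentage points, with p = 0.6 by the exact permutation test. WT Exp C stood above the other 4 lists, and without it the difference was 2.20. The Control experiment is the only one with both strains. There mec1 was higher than WT on both measures, with 17.4% against 11.6% of peaks and 17.8% against 1.82% of tRNA genes, from 265 and 43 peaks. The windows overlapped differed likewise, 8.18% against 0.932%, so the tRNA shares were 2.18 and 1.95 times the window shares. Peaks in the WT Exp C list were also long, with a median of 4943 bp against 2084 to 3230 bp in the other HU lists.

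Peaks with a tRNA gene were longer than the other peaks of the same list. The medians were 4314 against 3087 bp in mec1 Exp A, 4412 against 3081 bp in Exp B, and 4071 against 2932 bp in the mec1 Control list. In WT they were 6196 against 3241 bp in Exp C and 2239 against 1965 bp in the Control list. A longer peak has more room for any gene, and the part of length in the overlap was not tested. Resizing a peak around its midpoint changes its length and moves its edges together. With every peak set to 2 kb around its midpoint, the ratio of tRNA share to window share was 1.23, 0.985 and 1.28 in mec1 and 1.65 and 1.48 in WT.

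The other lists gave the same order of tRNA genes over windows, apart from the BamHI list. Called over mock, mec1 HU overlapped 80 tRNA genes (29.1% against 17.5% of windows), and called over G1 it overlapped 92 (33.5% against 19.0%). WT HU overlapped 7 genes over mock (2.55% against 1.33%) and 8 over G1 (2.91% against 1.71%). These lists are not separate evidence, since 260 of the 265 peaks of the mec1 Control list called alone recur with the same coordinates in the list over G1. In the BamHI list, with 1296 peaks, 29 tRNA genes were overlapped, or 10.5% (7.18 to 14.8) against 15.5% of windows, a ratio of 0.679.

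**Figure D1:**
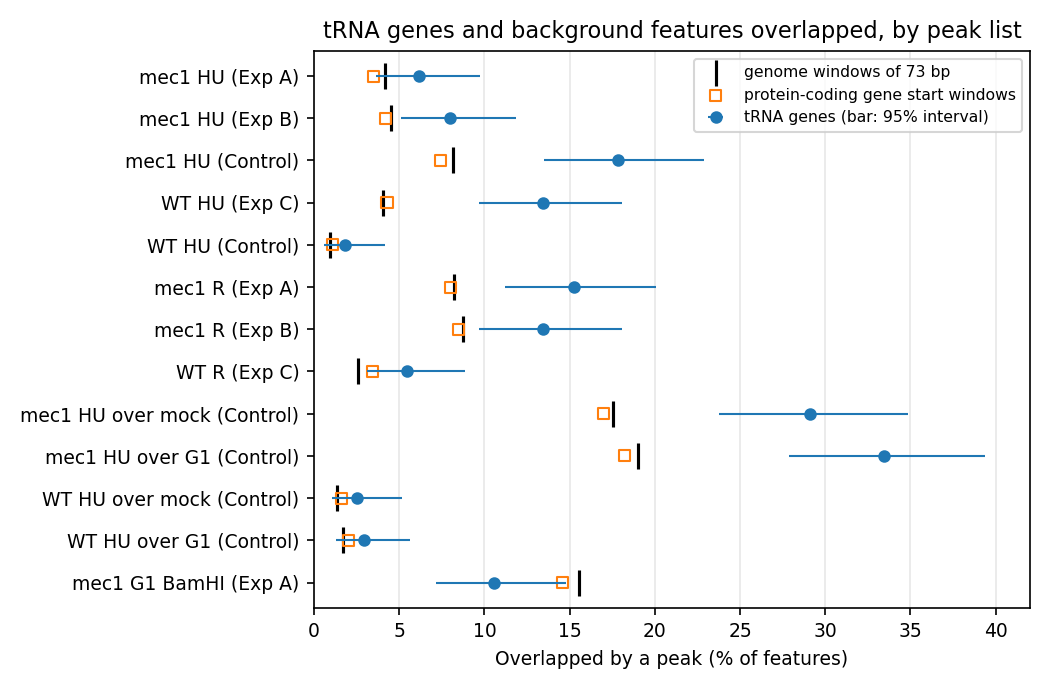
The share of features overlapped by a peak (percent, horizontal axis) in each of the 13 peak lists (vertical axis). Filled circles are the tRNA genes with 95% exact binomial intervals, open squares the protein-coding gene starts and vertical ticks the 73-bp genome windows. The circles lie to the right of the ticks in the 12 lists of HU and R samples, and to the left in the BamHI list (10.5% against 15.5%).

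Where a tRNA gene lies within its peak was described first by the distance from the peak midpoint. The median distance was 1417 bp in mec1 Exp A, 1347.5 bp in Exp B and 1553 bp in the mec1 Control list, and 1901 bp and 842.5 bp in WT Exp C and Control. Within 200 bp of a midpoint there was no gene in mec1 Exp A, Exp B or WT Exp C, 2 in the mec1 Control list and 1 in the WT Control list. Peaks cut to 200 bp overlapped between 0.0981% and 0.594% of windows in these lists, so few of the tRNA genes would be counted there at the background rate. This background is for a narrower zone, since a cut peak spans 200 bp in all and the counts reach 200 bp on either side.

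Since peaks differ in length, the distance was also divided by the peak's reach on each side, so that 0 is the midpoint and 1 the edge. The median relative distance of tRNA genes was 0.76, 0.75 and 0.84 in the mec1 lists and 0.72 and 0.80 in the WT lists. Gene starts in the same lists gave 0.54, 0.51, 0.49, 0.53 and 0.58, close to the middle of the range. The difference averaged 0.245 (SD 0.0598, n = 5 lists) and was positive in 5 of 5 lists, with p = 0.063 by the exact sign-flip permutation test, again the smallest value possible. No list decided it: leaving out 1 list at a time gave 0.220 to 0.257.

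The side was not constant. Relative to the direction of transcription, the peak midpoint was upstream of the gene in 5 cases and downstream in 12 in mec1 Exp A, 9 and 13 in Exp B, 27 and 22 in the mec1 Control list, 14 and 23 in WT Exp C, and 2 and 3 in the WT Control list.

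The pattern was then described from the peak edge, by counting tRNA genes whose midpoint lay within 500 bp of an edge on either side. This distance was chosen after the midpoint values had been seen, so the counts are a description without a test. In mec1 Exp A 20 genes lay that near an edge (7.27% against 2.27% of windows), in Exp B also 20 (7.27% against 2.47%) and in the Control list 46 (16.7% against 4.35%). In WT Exp C there were 21 (7.64% against 1.67%) and in the WT Control list 7 (2.55% against 0.710%). The ratios of 3.20, 2.94, 3.85, 4.56 and 3.59 had a mean of 3.63 (SD 0.627, n = 5 lists).

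Genes near an edge were found on both of its sides. In mec1 Exp A 8 of the 20 were inside the peak and 12 just outside, in Exp B 12 and 8, in the mec1 Control list 30 and 16, in WT Exp C 10 and 11, and in the WT Control list 2 and 5. A rule that asks for overlap therefore misses a part of the tRNA genes that border a peak.

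Deeper in the peaks, more than 500 bp from an edge, the mec1 lists were near their background. They held 7 genes (2.55% against 2.94% of windows) in Exp A, 10 (3.64% against 3.21%) in Exp B and 18 (6.55% against 5.82%) in the Control list. WT Exp C differed, with 22 genes (8.00% against 3.12%), and the WT Control list held 1 (0.364% against 0.548%). The excess of tRNA genes in mec1 HU peaks was thus an excess at the edges, while in WT Exp C it ran through the peak; with 2 WT lists that go apart, this contrast between strains was not tested.

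Over the 5 HU lists, the ratio to windows was 2.31 between 500 and 1000 bp outside the peak, 2.70 between 250 and 500 bp outside and 3.96 in the last 250 bp before the edge. It was 3.63 in the first 250 bp inside, 4.14 between 250 and 500 bp and 1.60 between 500 and 1000 bp. Farther in it was 1.07 and then 1.46 beyond 2000 bp, from 19 and 16 genes.

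The BamHI list gave the opposite order at its edges, with 34 tRNA genes within 500 bp (12.4% against 20.9% of windows, a ratio of 0.592). The Control lists called over another library repeated the edge values of the lists they share a library with. Over mock, mec1 had 66 genes (24.0% against 7.28%) and WT 9 (3.27% against 0.966%). Over G1, mec1 had 73 (26.5% against 8.31%) and WT 15 (5.45% against 1.42%).

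**Figure D2:**
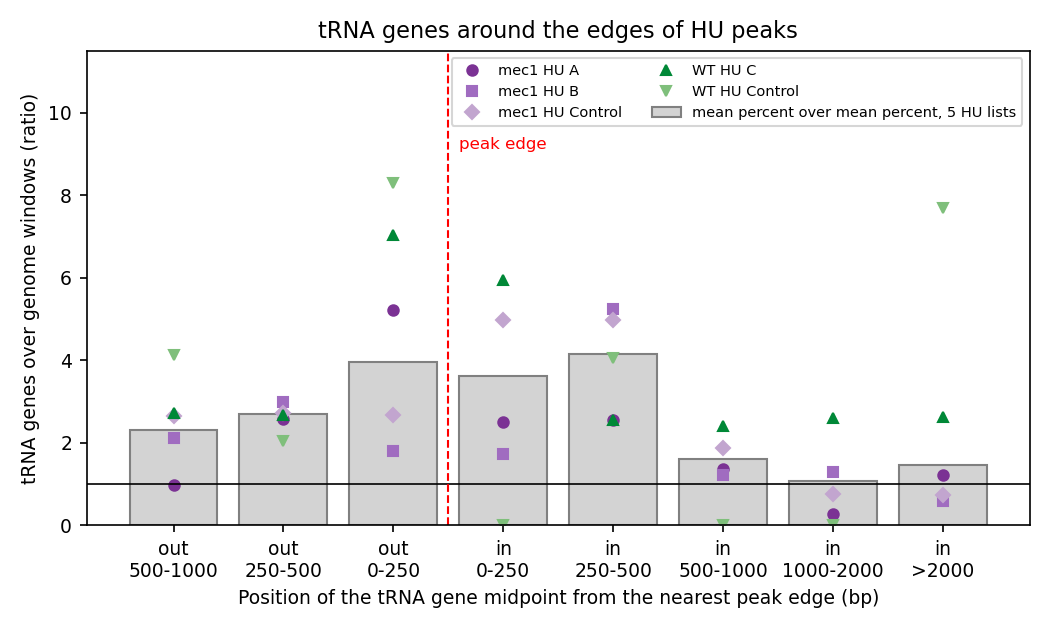
The ratio of tRNA genes to genome windows (vertical axis) by position from the nearest peak edge in bp (horizontal axis, outside the peak on the left of the dashed line and inside on the right). Grey bars are the mean percent of tRNA genes over the mean percent of windows in the 5 HU lists, and symbols are the single lists. The bars are tallest within 500 bp inside and 250 bp outside the edge (3.63 to 4.14) and near 1 from 1000 to 2000 bp inside (1.07).

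Individual genes show this arrangement. YNCI0005W (chrIX:210665-210738, plus strand) lies between YIL082W-A, known as the Gag-Pol frame of a Ty3 element, and AIR1, which encodes an RNA-binding subunit of the TRAMP complex. It was 1 of 2 tRNA genes overlapped in both WT HU lists. The Exp C peak ran from 210733 to 218523 and began inside the gene, and the Control peak ran from 208445 to 210683 and ended inside it, so the peaks lay on opposite sides of the tRNA gene.

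YNCB0007W (chrII:266378-266450, plus strand), beside the glutaredoxin gene GRX7, stood at the left border of 3 peaks of very different length. The peak was 9631 bp long in mec1 Exp B, 4013 bp in the mec1 Control list and 1286 bp in WT Exp C. The left edge was at 266089, 266199 and 266256, so that the gene's midpoint was 325.5, 215.5 and 158.5 bp inside. The left edges differed by less than 200 bp while the right edges were at 275719, 270211 and 267541.

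YNCM0010W (chrXIII:290801-290872, plus strand) lies between the hexose transporter gene HXT2 and CLU1. It was close to the midpoint of a peak in the mec1 Control list (288129 to 293775, 80 bp from the midpoint). In WT Exp C it bordered a peak on the left that ended at 290817, and in mec1 R Exp B a peak on the right that began at 290694. The same gene was thus at the middle of one peak and at the edge of others.

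Recurrence was counted over the 5 HU lists. Of all tRNA genes, 193 were in no list, 43 in 1, 30 in 2 and 9 in 3, and 0 were in 4 or 5. For 1, 2 and 3 lists these are 15.6%, 10.9% and 3.27%, against 9.59%, 3.64% and 1.44% of windows. Windows in 4 and 5 lists were 0.143% and 0.0236%. At least 1 list held 82 genes, which is 29.8% against 14.8% of windows. At least 3 lists held 9 genes (3.27% against 1.60%). All 3 mec1 lists held 5 genes (1.82% against 1.20%), and both WT lists held 2 genes (0.727% against 0.256%). The ratio to windows was thus no higher for genes in all 3 mec1 lists than for genes in any list. It was higher for genes in exactly 2 lists and for the 2 genes in both WT lists. Counting every list except BamHI, 136 genes were in none of 12, a count for which windows were not taken as background.

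By strain, 62 tRNA genes were in at least 1 mec1 HU list and 40 in at least 1 WT HU list, and 20 were in both. Windows were not counted for these sets, so the numbers have no background and do not compare the strains. Of the 17 genes of mec1 Exp A and the 22 of Exp B, 9 were shared, or 52.9% and 40.9% of each. Windows shared 49.5% and 45.4%, so tRNA genes recurred between these lists about as windows did. The mec1 Control list shared 15 genes with Exp B (30.6% and 68.2%) against 27.9% and 50.2% for windows. With Exp A it shared 7 (14.3% and 41.2%), against 20.9% and 41.0% for windows. It also shared 15 with WT Exp C (30.6% and 40.5%), against 14.8% and 29.9% for windows, while Exp A and Exp B shared 2 each with WT Exp C, near the window shares (11.8% of the Exp A genes against 10.6%, and 9.09% of the Exp B genes against 11.2%).

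The 5 tRNA genes in all 3 mec1 HU lists stood at 4 places. YNCL0032C (chrXII:592519-592619, minus strand) lies between ADY4, which encodes a component of the meiotic spindle pole, and YLR227W-B, known as a Ty1 Gag-Pol frame. Its peaks ran from 586450 to 593226 in Exp A, from 586626 to 593051 in Exp B and from 586305 to 593136 in the Control list. The gene was toward the right end of all 3, 657.5, 482.5 and 567.5 bp inside, and again in mec1 R Exp A at 661.5 bp.

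YNCN0011W (chrXIV:568115-568217, plus strand) and YNCN0012C (chrXIV:569867-569940, minus strand) stand on either side of YNL035C. A single peak held both in Exp A (567813 to 570500) and in Exp B (567886 to 570411), so they are 1 site there. In the Control list each had a peak of its own (567676 to 569453 and 569672 to 572761). Both were also in both mec1 R lists, and neither was in a WT list. YNCN0012C was in the BamHI list as well, which overlapped 15.5% of windows.

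YNCP0004C (chrXVI:210192-210263, minus strand), between the phosphatase gene PPQ1 and the cap-binding gene CBC2, was 318 and 385.5 bp from the peak midpoint in Exp A and Exp B. In the Control list it was 622.5 bp away, in a shorter peak of 1546 bp. YNCP0024C (chrXVI:880296-880369, minus strand), beside JIP5, was 913.5, 641.5 and 983 bp from the midpoint, and it was in both mec1 R lists too.

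The other genes in 3 HU lists came from both strains. YNCL0033C (chrXII:605300-605432, minus strand) was in both WT lists and the mec1 Control list. SUP54 (chrVII:423092-423205, plus strand), next to the haem synthesis gene HEM2, was in mec1 Exp A and Control and in WT Exp C. YNCL0001W (chrXII:92548-92650, plus strand), next to the disaggregase gene HSP104, was in mec1 Exp B and Control and in WT Control. YNCB0007W, described with its borders, completes the 9. SUP54 and YNCL0001W were named after their values were seen.

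**Figure D3:**
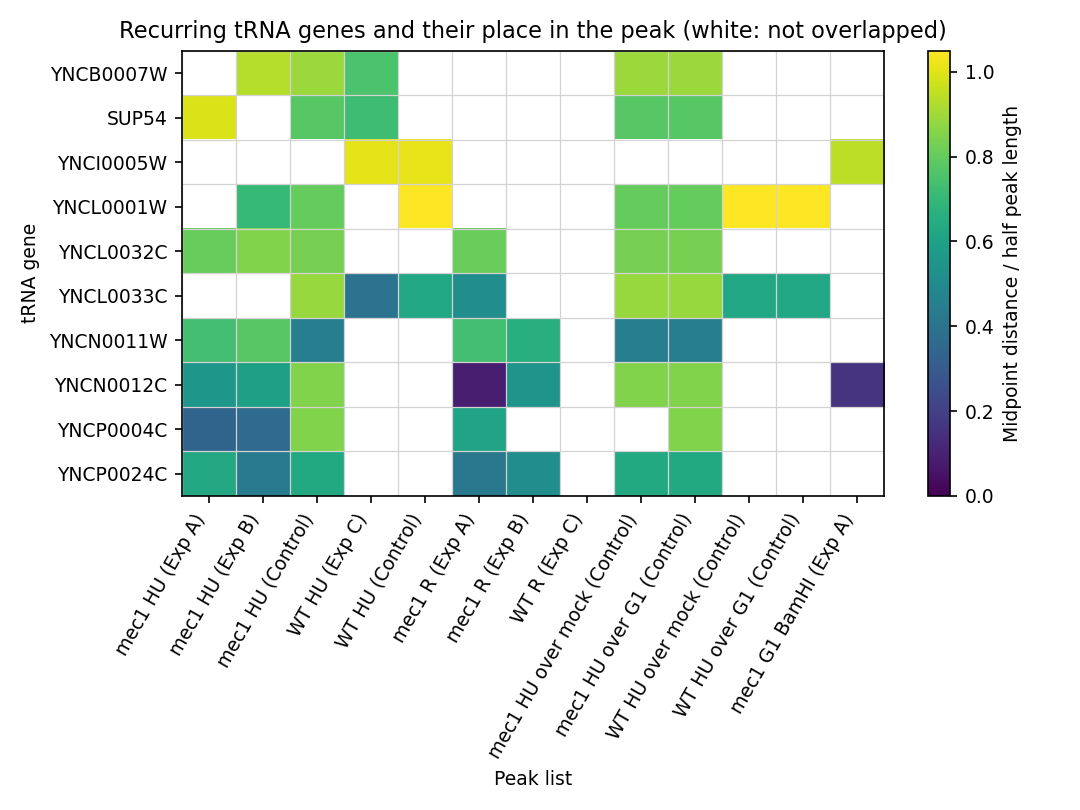
The 10 tRNA genes in all 3 mec1 HU lists, in both WT HU lists or in at least 3 HU lists (rows) across the 13 peak lists (columns). Colour is the distance from peak midpoint to gene midpoint divided by the reach of the peak on each side (0 at the midpoint, 1 at the edge, slightly above 1 where only an end of the gene is overlapped), and white cells are not overlapped. YNCI0005W is at the edge in both WT HU lists, and the WT R column holds none of the 10.

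The 3 genes nearest to a midpoint mostly differed between lists. In mec1 Exp A they were YNCP0004C, YNCP0023W (345.5 bp) and YNCN0012C (710.5 bp). In Exp B they were YNCI0002W (282 bp), YNCH0010C (360 bp) and again YNCP0004C. In the mec1 Control list the peak midpoint fell within YNCE0028C, and YNCM0010W and YNCN0011W (347.5 bp) followed. In WT Exp C they were YNCE0023W (225 bp), SUP17 (439.5 bp) and YNCB0007W (448.5 bp). In WT Control they were SUP61 (100.5 bp), the gene of an essential serine tRNA, YNCL0033C (571.5 bp) and YNCL0001W (842.5 bp).

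For recovery, peaks overlapped 42 tRNA genes in mec1 Exp A (15.3% against 8.23% of windows) and 37 in Exp B (13.5% against 8.74%). In WT Exp C they overlapped 15 (5.45% against 2.55%). The mec1 R mean of 14.4% ± 1.29 (SD, n = 2) was 3.70 percentage points above the mec1 HU mean of 10.7%, and within Exp A and Exp B the mean difference was 7.27. R peaks were called against HU, and HU peaks alone, so no test of this difference was made.

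The mec1 R lists placed their tRNA genes differently. In Exp A the median relative distance was 0.52, close to that of gene starts at 0.53, with 20 genes near an edge (7.27% against 3.17%) and 30 deeper inside (10.9% against 6.48%). In Exp B it was 0.89 against 0.53, with 44 genes near an edge (16.0% against 3.36%) and 10 deeper inside (3.64% against 6.89%). The peaks of both lists had similar median lengths, 4156.5 and 4339 bp. In WT R Exp C the value was 0.58 against 0.48, with 11 genes near an edge (4.0% against 2.15%) and 8 deeper inside (2.91% against 1.35%).

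The mec1 R lists shared 17 tRNA genes, or 40.5% and 45.9% of each, against 34.6% and 32.6% for windows. Among them were the YNCN0011W and YNCN0012C pair and YNCP0024C, which were also in all 3 mec1 HU lists. YNCP0022W and YNCP0023W on either side of the glucan synthesis gene KRE6 were shared too, as was SUP4, a tyrosine tRNA gene known for its ochre suppressor alleles. The others were YNCB0004W, YNCB0011C, YNCD0028W, YNCE0009C, YNCE0028C, YNCH0010C, YNCI0002W, YNCJ0008W, YNCL0009C, YNCO0008W and YNCO0018W. SUP4 was in the left part of a long peak in both, from 541252 to 554228 in Exp A and from 542711 to 554534 in Exp B.

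Of the 15 tRNA genes of WT R, 0 were in either mec1 R list. Windows of the WT R list were shared in 5.62% with mec1 R Exp A and 17.1% with Exp B.

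Within an experiment, 12 of the 17 tRNA genes of mec1 HU Exp A were still listed in R (70.6%, against 61.9% of windows). They were SUP19, YNCH0016C, YNCJ0005C, YNCL0009C, YNCL0032C, the YNCN0011W and YNCN0012C pair, YNCO0031W, YNCP0004C, YNCP0022W, YNCP0023W and YNCP0024C. In Exp B 9 of 22 were (40.9%, against 38.8%): TRN1, YNCD0024C, YNCH0010C, YNCI0002W, YNCN0011W, YNCN0012C, YNCO0012C, YNCP0022W and YNCP0024C. In WT Exp C 2 of 37 were, YNCF0014C and the elongator methionine tRNA gene EMT5 (5.41%, against 3.87%). The tRNA shares followed the window shares in each experiment, high in mec1 and low in WT.

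Clustered and isolated tRNA genes were compared within each list. In mec1 HU, 7.50% of clustered and 5.64% of isolated genes were overlapped in Exp A, 8.75% and 7.69% in Exp B, and 26.2% and 14.4% in the Control list. In WT HU the values were 12.5% and 13.8% in Exp C and 1.25% and 2.05% in Control, the last from 1 of 80 and 4 of 195 genes. Called over mock or over G1, the WT Control library gave 3.75% of clustered genes against 2.05% and 2.56% of isolated ones, the other direction. The mean difference of 2.53 percentage points (SD 5.39, higher for clustered genes in 3 of 5 lists) was within the spread, with p = 0.4375 by the exact sign-flip permutation test. The Control list of mec1 set its size, and without it the difference was 0.192. With clusters defined at 2 kb it was 7.19 and at 10 kb it was -0.0106.

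In recovery, 22.5% of clustered and 12.3% of isolated genes were overlapped in mec1 Exp A and 21.2% and 10.3% in Exp B, but 1.25% and 7.18% in WT Exp C. The WT values rest on 1 of 80 and 14 of 195 genes. BamHI peaks overlapped 5.00% and 12.8%. The mec1 R lists were thus about 10 percentage points higher for clustered genes, at 10.2 and 11, while WT R was lower.

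Of the 5 clusters with 3 or more genes, the group YNCE0021C, YNCE0022C, YNCE0023W and YNCE0025C (chrV:434541-443275) had 1 gene overlapped in the mec1 Control HU list, 1 in WT Exp C and 3 in mec1 R Exp A. YNCE0008C, YNCE0009C and YNCE0010W (chrV:131082-138737) had 1 overlapped in the mec1 Control HU list and 2 in each mec1 R list. HSX1, YNCJ0026W and SUP4 (chrX:538555-543044) had 0 in HU called alone, 2 in mec1 R Exp A and 1 in Exp B. YNCJ0013C, YNCJ0014C and YNCJ0015W (chrX:374424-378433) had 1 in each mec1 list called over mock or G1. SUP7, YNCJ0011W and YNCJ0012W (chrX:354244-355527) were in 0 lists, BamHI included. No cluster of 3 or more genes was covered whole in any of the 13 lists.

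**Figure D4:**
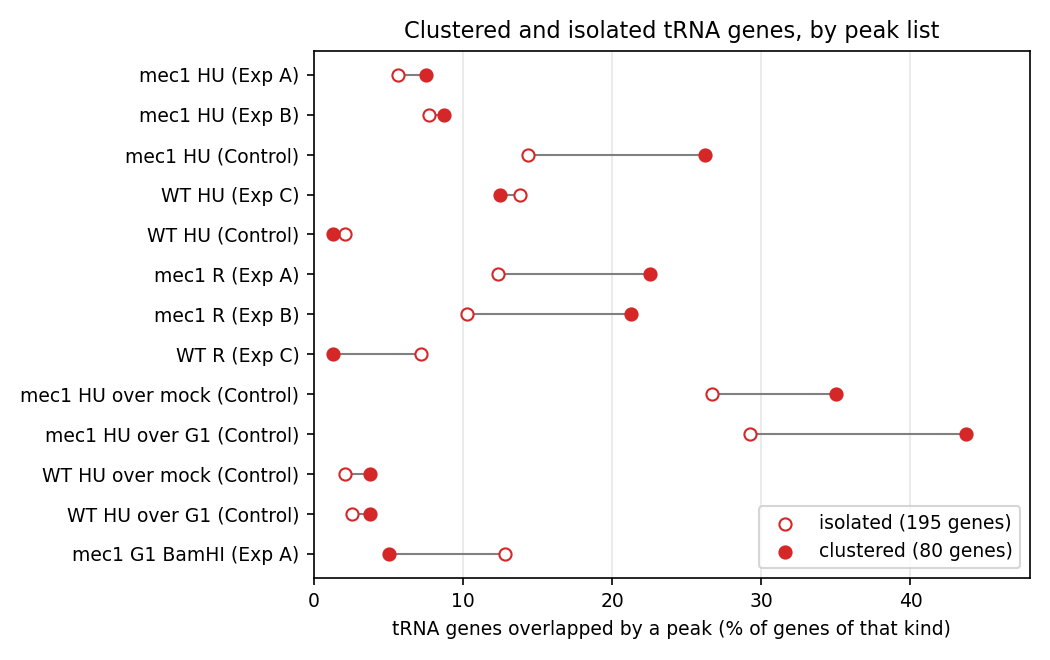
The percent of the 80 clustered tRNA genes (filled circles) and the 195 isolated ones (open circles) overlapped by a peak (horizontal axis) in each of the 13 lists (vertical axis), with a line joining both values of a list. The filled circle is to the right in all mec1 lists of HU and R, and to the left in the WT HU lists called alone, the WT R list and the BamHI list.

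The named families are small, and their counts are to be read beside the 29.8% of all tRNA genes in a HU list. All 8 tyrosine tRNA genes with SUP names (SUP2, SUP3, SUP4, SUP5, SUP6, SUP7, SUP8 and SUP11) were absent from the 5 HU lists, and 5 of them were in some other list of HU or R. Of the 4 initiator methionine genes, IMT4 was overlapped, in the mec1 Control list. Of the 5 elongator methionine genes, EMT3 and EMT5 were overlapped. The 47 genes with a symbol of their own had 13 in a HU list and the 228 known by locus tag had 69.

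The surroundings of the 82 tRNA genes in at least 1 HU list were set beside those of the 193 in none, as a description. The median stretch between the neighbouring protein-coding genes was 1612.5 bp for the 82 and 1315 bp for the 193. The share did not rise steadily with this stretch. It was 5 of 10 genes below 500 bp, 15 of 71 (21.1%) from 500 to 1000 bp, 32 of 125 (25.6%) from 1000 to 2000 bp and 30 of 69 (43.5%) at 2000 bp or more. Between tandem neighbours 49 of 138 were overlapped (35.5%), between divergent neighbours 23 of 89 (25.8%) and between convergent neighbours 10 of 48 (20.8%). Regions without a tRNA gene were not counted by stretch or orientation, so these shares cannot be called particular to tRNA genes. The gene's strand was even, with 43 on the plus and 39 on the minus strand. All 5 tRNA genes that overlap a protein-coding gene in the table, YNCG0038C, EMT3, YNCN0009W, SUF11 and YNCP0023W, were in a HU list.

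By chromosome, 7 of the 14 tRNA genes of chromosome XIV were in a HU list (50.0%, where windows gave 11.2%), which includes the YNCN0011W and YNCN0012C site. Chromosome I had the same share, from 2 of 4 genes (where windows gave 21.2%), and VIII had 5 of 11 (45.5%, where windows gave 14.1%). These were picked from the 16 as the highest shares, and neighbouring genes under 1 peak count separately. On chromosome VI the count was 2 of 10 (where windows gave 26.0%). On the other chromosomes the tRNA share was above the window share, and no test was made with so few genes on each.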

How the data were processed

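The deposited files are peak lists with positions on sacCer3 and a score. This score, from the authors' peak caller and of unstated scale, and was used only as a filter within a list (minimum 100). Per the submitters' processing notes, tools included Bowtie2, BWA 0.6.2 and MACS 1.4.1. The handling of reads that match several tRNA copies is not given in the sources used here. Starts were made 1-based. Genes came from the RefSeq R64 table, the same build, which gives no anticodon, so families follow gene symbols. Overlap meant at least 1 bp. Lists were the unit of every test, with exact permutation or sign-flip tests, in Python 3.11.15 with pandas 2.3.3, NumPy 2.4.6, SciPy 1.17.1 and Matplotlib 3.10.9. The overlap counting was tested on simulated data. Genes were named if in all 3 mec1 or both WT HU lists, in at least 4 HU lists, in both mec1 R lists, in HU and R of 1 experiment, among the 3 nearest to a midpoint in a HU list, or in a cluster of at least 3. Other genes named were chosen after their values were seen. Members, lists and tests were chosen with earlier results of these data known. Alternatives covered overlap, score, peak length, background, cluster distance and leaving out lists.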

Additional observations from a re-analysis of the deposited data

Results flagged for a closer look

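Clustered tRNA genes were overlapped more often than isolated ones in all 3 mec1 HU lists and less often in both WT HU lists called alone, and the means of that difference lay 6.01 percentage points apart. This contrast was picked from the same lists, and lists that do not overlap fix the exact permutation p at its smallest value of 0.2, so the test adds nothing to the values. The WT Control value rests on 1 of 80 clustered and 4 of 195 isolated genes, and the same library called over mock or over G1 gave differences of 1.70 and 1.19, toward clustered genes. With clusters defined at 2 kb the gap was 3.27 (exact permutation p = 1). Without the mec1 Control list the gap was 2.53, and with clusters defined at 10 kb it was 0.466. The opposite WT direction also depended on the overlap rule. Counting only genes whole inside a peak, all 5 HU lists went toward clustered genes, by 3.76 percentage points on average. In recovery both mec1 lists went toward clustered genes and the WT list toward isolated ones, a gap of 16.5 percentage points. That gap was not tested, as WT recovery has 1 list, with 1 of 80 clustered and 14 of 195 isolated genes overlapped. Other cluster distances and overlap rules were not tried for the recovery gap.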

How the results depend on the processing

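No alternative gave a p below 0.05, which these numbers of lists do not allow. Cutting peaks to 200 bp around the midpoint reversed the excess over gene starts (-0.0945 percentage points) and the strain difference in the share of peaks with a tRNA gene (0.252), with 0 to 2 tRNA genes left per HU list. Setting peaks to 2 kb shrank the excess over gene starts from 5.37 to 0.879. Leaving out 1 list at a time moved the strain difference in tRNA genes from -2.79 to 8.85 and that in peaks from -18.2 to 2.20 percentage points. The clustered minus isolated difference turned to -0.0106 at 10 kb and was 3.76, with the same sign in all 5 HU lists, for genes whole inside a peak. The edge ratio fell to 2.85 when near meant 1000 bp, a wider zone, and was 4.01 at 250 bp, both chosen after seeing the data. Experiment letters pair HU and R samples by label. With experiment as a replicate block, Exp A and Exp B gave 7.27 for recovery minus HU in mec1, against 3.70 unpaired. The causes of the reversals were not tested, and resizing peaks around the midpoint changes their length and moves their edges together. Depth is unknown, so longer lists cannot be told apart from deeper libraries.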
